A study of Homo sapiens with 9 samples.

Results

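Transcripts of 9 transcription factor genes that mark or shape the luminal lineage of the prostate were followed in PC3 and LNCaP prostate cancer cells. HOXB13, FOXA1, GATA2, GATA3, GRHL1, GRHL2, ONECUT2, SOX9 and KLF5 were chosen by symbol from the 28216 genes of the count table, and all 9 were found there. PC3 and LNCaP are established lines, both grown from metastases, and both are given as wild type and epithelial. The 3 PC3 libraries came from untreated cells in F12K medium with 10% FBS (foetal bovine serum). LNCaP cells (clone FCG) were kept for 24 h in RPMI without phenol red and with 10% charcoal-stripped FBS, which is depleted of steroid hormones. They were then given 10 nM androgen for 48 h (3 libraries) or the 0.01% ethanol vehicle for 48 h (3 libraries). The sample labels and the supplementary figure legends name the androgen as dihydrotestosterone (DHT), while the main text names R1881. Medium, serum and steroid depletion differ between the lines, so that their part in a difference between PC3 and LNCaP cells cannot be told apart from that of the line. The labels do not say whether the libraries of a group came from separate cultures, and p-values measure the spread between these libraries, which may be technical.

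Luminal cells are the secretory cells of the prostate gland, and they sit above a layer of basal cells. FOXA1, a forkhead protein that opens chromatin, HOXB13, a homeobox protein of the posterior body and the prostate, and GATA2, a zinc finger protein, all bind near androgen-responsive enhancers. GATA3 is a relative of GATA2 that acts in luminal cells of breast and prostate. GRHL1 and GRHL2 are grainyhead-like proteins that maintain cell junction genes of epithelia. ONECUT2 is a cut-homeobox protein studied in prostate cancers that lose their luminal character. SOX9 is needed for prostate budding, and KLF5 is a zinc finger protein of basal and luminal progenitors.

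The libraries held 17397706 to 25640325 counts on genes, and CPM values of genes are scaled to library size with TMM factors. On that scale 3 counts corresponded to 0.118 to 0.160 CPM. Of 12 luminal prostate markers in the table, KLK2 and MSMB were at 0 in all PC3 libraries, and the summed level of the 12 was 896 to 960 CPM in PC3, 14497 to 15064 CPM in androgen-treated and 3757 to 4141 CPM in vehicle-treated LNCaP cells. MSMB was low in LNCaP cells as well, with 26 to 36 counts with androgen and 2 to 7 with vehicle. KRT19, a keratin gene of the same list, ran the other way, at 441 ± 32.5 CPM in PC3, 15.5 ± 2.50 with androgen and 1.79 ± 0.727 with vehicle (SD, n = 3). The sum of 8 basal markers was 109.6 to 317 CPM in PC3 and at most 5.96 CPM in LNCaP cells, while the basal keratin genes KRT5, KRT14, KRT6A and KRT17 had at most 2 counts in any PC3 library. The 7 mesenchymal markers summed to 2855 to 3663 CPM in PC3, 169.7 to 181 CPM with androgen and 412 to 456 CPM with vehicle. With androgen against vehicle, 4 of the 7 were tested. FN1, which encodes fibronectin, fell (log2 fold change −1.99 ± 0.06, edgeR adjusted p = 5.21e-12), while TWIST1 and VIM rose (2.57 ± 0.14 and 1.86 ± 0.36, edgeR adjusted p = 2.28e-09 and 0.000447). VIM had 272, 143 and 106 counts in replicates 1 to 3 with androgen and 75, 23 and 32 with vehicle. Its mean with vehicle was 2.25 CPM. It passed the filter on low counts (more than 3 CPM in at least 3 libraries) through the androgen-treated libraries, which favoured a rise. SNAI2 was above 3 CPM with androgen and not with vehicle, and averaged 10.8 CPM in PC3. The neuroendocrine markers INSM1, CHGA and NEUROD1 were at 0 in every library of both lines. SRRM4 was at 0 in PC3 and had at most 5 counts in a LNCaP library. In PC3 FOXA2 and PEG10 made up most of the neuroendocrine list sum of 218 to 386 CPM, against at most 9.71 CPM in LNCaP cells. SYP, of the same list, was highest with androgen, at a mean of 5.24 CPM, against 2.05 CPM in PC3 and 1.81 CPM with vehicle. Leukocyte, endothelial and fibroblast markers (6 genes) summed to 71.0 to 77.7 CPM in PC3 and 22.9 to 35.2 CPM in LNCaP cells, and PTPRC and CDH5 were at 0 in all LNCaP libraries. PC3 cells thus lacked part of the luminal markers that the name of the 9 genes refers to, and the part of these marker differences in the results was not tested. In bulk RNA, fewer cells with a transcript and less of it per cell cannot be told apart.

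A trace of transcripts typical of PC3 was present in the LNCaP libraries numbered 1. Over the 20 genes above 100 CPM in PC3 with the lowest share in LNCaP cells, which were chosen for that low share, the level was 0.341% of that in PC3 in androgen-treated replicate 1 and 0.212% in vehicle-treated replicate 1. It was at most 0.0266% in the other LNCaP libraries, and LNCaP transcripts in PC3, measured the same way, were at most 0.014%. VIM, abundant in PC3, had its highest LNCaP counts in the libraries numbered 1, and the part of the trace in them was not tested.

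Levels of different genes were compared per kilobase of the Ensembl canonical transcript. In PC3 cells the level per length was highest for HOXB13, at 197 ± 59.1 CPM per kb (SD, n = 3). KLF5 followed with 66.4 ± 10.6, SOX9 with 38.7 ± 2.10 and FOXA1 with 33.8 ± 0.615 CPM per kb. GATA2, GRHL1, GATA3, GRHL2 and ONECUT2 had means of 3.53, 1.68, 1.48, 0.675 and 0.391 CPM per kb. The ranges of GRHL1 and GATA3 overlapped, and the other neighbours in this order did not overlap.

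In LNCaP cells FOXA1 and HOXB13 led, and GATA2 and GRHL2 came next. With androgen the means per length were 154 ± 4.79 CPM per kb for FOXA1, 139 ± 3.05 for HOXB13, 37.4 ± 0.327 for GATA2 and 33.2 ± 1.31 for GRHL2 (SD, n = 3). KLF5 and GRHL1 overlapped at 9.79 ± 1.31 and 9.55 ± 0.309 CPM per kb, followed by SOX9 at 4.44, ONECUT2 at 0.956 and GATA3 at 0.0103 CPM per kb. With vehicle the order was HOXB13, FOXA1, GATA2, GRHL2, GRHL1, KLF5, SOX9, ONECUT2 and GATA3, at 176, 149, 85.1, 22.5, 6.31, 2.09, 1.04, 0.737 and 0.0114 CPM per kb, and no neighbours overlapped. The places of FOXA1 and HOXB13, of GATA2 and GRHL2 and of GRHL1 and SOX9 in androgen-treated cells were exchanged when the length of all merged exons was used, and so rest on the length taken.

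The sum of the 9 levels per length was 304 to 401 CPM per kb in PC3, 382 to 395 with androgen and 427 to 451 with vehicle. HOXB13 made up 51.1% to 66.0% of it in PC3, 35.5% to 36.1% with androgen and 39.3% to 40.4% with vehicle. KLF5 and SOX9, which held 13.5% to 23.5% and 10.2% to 12.1% of the sum in PC3, held at most 2.88% and 1.26% in LNCaP cells. GATA2 held 0.777% to 1.31% in PC3, 9.39% to 9.79% with androgen and 19.1% to 19.4% with vehicle. The sums were of like size, and their make-up differed between the lines.

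**Figure D1:**
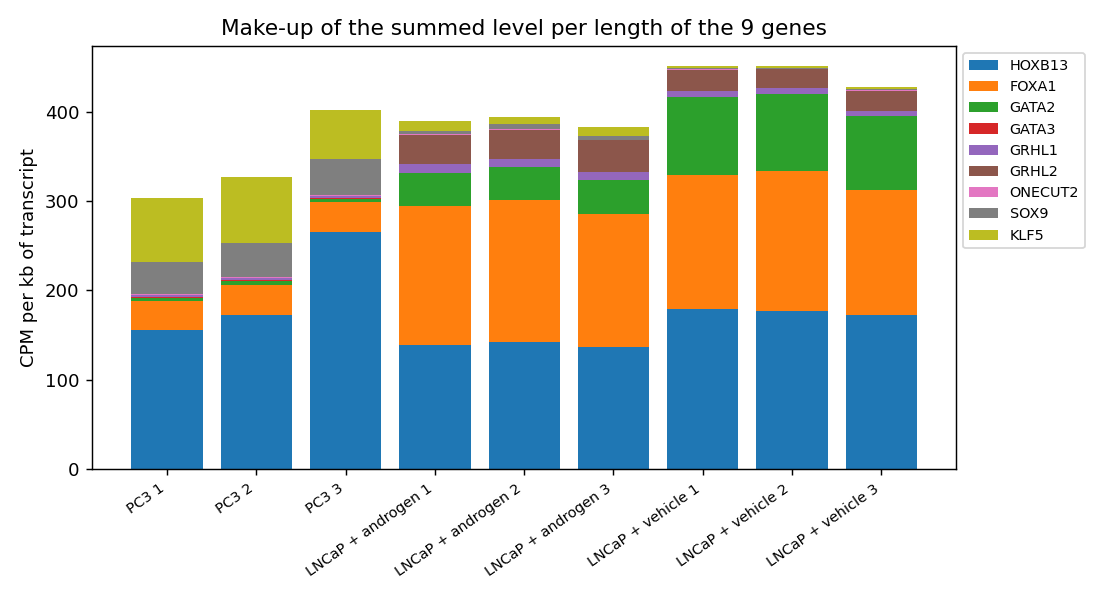
Stacked bars show the level per length (CPM per kb of canonical transcript) of each of the 9 genes in each of the 9 libraries, with 3 libraries in each group. HOXB13 is the largest part of every PC3 bar, FOXA1 and HOXB13 fill most of the LNCaP bars, and KLF5 and SOX9 are wide bands in PC3 only.

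In PC3 against androgen-treated LNCaP cells, 8 of the 9 genes were called, that is, they passed an adjusted p of 0.05 and differed by a factor of 2 or more. GATA3, SOX9 and KLF5 were higher in PC3, FOXA1, GATA2, GRHL1, GRHL2 and ONECUT2 were lower, and HOXB13 was not called. Of all 12541 genes tested, 46.0% were called, 24.0% higher and 22.1% lower in PC3. Against vehicle-treated LNCaP cells 7 of the 9 were called, 3 higher and 4 lower, where 43.2% of 12686 genes were called, 22.2% higher and 21.0% lower. GATA3 passed the filter on low counts (more than 3 CPM in at least 3 libraries) only through PC3 and so had to differ. Over all genes tested, the log2 fold changes had medians of 0.04 and 0.03. By the adjusted p alone, 84.0% and 83.4% of genes were past the threshold, and so were 9 and 8 members. The comparisons share the PC3 libraries and are not independent.

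**Figure D2:**
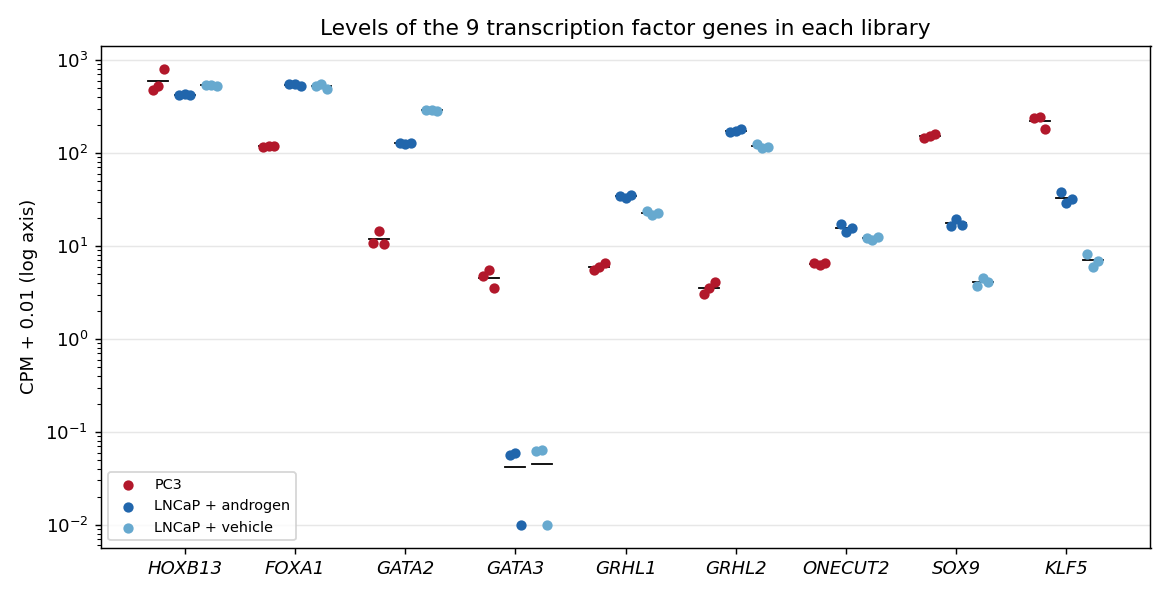
Points show CPM + 0.01 on a log axis for each gene in each library, with 3 libraries per group and a black line at the group mean. FOXA1, GATA2, GRHL1, GRHL2 and ONECUT2 lie lower in all PC3 libraries than in any LNCaP library, SOX9, KLF5 and GATA3 lie higher, and the points of GATA3 in LNCaP cells stand for 1 count or none.

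HOXB13 (chr17:48724763-48728750, minus strand) was abundant in both lines. It measured 471, 523 and 805 CPM in PC3 replicates 1 to 3, 420.2, 433 and 415 CPM with androgen and 545, 539 and 524 CPM with vehicle. The PC3 values spread widely and lay on both sides of the vehicle values. The log2 fold change was 0.49 ± 0.19 (SE) against androgen-treated (edgeR adjusted p = 0.0395, below the fold threshold) and 0.14 ± 0.19 against vehicle-treated cells (edgeR adjusted p = 0.499, 95% interval −0.30 to 0.58). PC3 replicate 3 was 1.62 times the mean of the other two, a ratio exceeded by 3.23% of 13912 genes with at least 10 counts in each PC3 library. Without that replicate the log2 fold change against vehicle-treated cells was −0.16 (edgeR adjusted p = 0.0222), and against androgen-treated cells it was 0.20. Over all alternatives, the adjusted p against androgen-treated cells ran from 0.0113 to 0.0976.

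FOXA1 (chr14:37589552-37596059, minus strand) separated the lines and varied little within a group. Its level was 116, 119 and 120.2 CPM in PC3, 546, 557 and 524 CPM with androgen and 528, 549.9 and 489.8 CPM with vehicle. All PC3 libraries lay below all LNCaP libraries, whose 2 groups overlapped. FOXA1 was 4.61-fold lower in PC3 than in androgen-treated cells (log2 fold change −2.21 ± 0.06, edgeR adjusted p = 4.39e-08) and 4.48-fold lower than in vehicle-treated cells (−2.16 ± 0.07, edgeR adjusted p = 6.70e-08). Per length, the ratio of FOXA1 to HOXB13 was 0.129 to 0.213 in PC3, 1.09 to 1.13 with androgen and 0.810 to 0.884 with vehicle.

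The GATA genes differed between the lines in opposite directions. GATA2 (chr3:128479427-128493201, minus strand) measured 10.8, 14.4 and 10.5 CPM in PC3, 128, 125 and 127 CPM with androgen and 293, 291 and 281 CPM with vehicle. The 3 groups did not overlap, with PC3 lowest and vehicle highest. GATA2 was 10.7-fold lower in PC3 than in androgen-treated cells (log2 fold change −3.42 ± 0.12, edgeR adjusted p = 1.11e-07) and 24.6-fold lower than in vehicle-treated cells (−4.62 ± 0.13, edgeR adjusted p = 3.69e-08).

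GATA3 (chr10:8045378-8075198, plus strand) was at the floor in LNCaP cells. It had 118, 121 and 89 counts in PC3, which is 4.71, 5.44 and 3.50 CPM, and 1, 1 and 0 counts in replicates 1 to 3 of both LNCaP groups. It was low in PC3 as well, where it stood near GRHL1 per length. With 328 summed counts in PC3 against 2, the ratio was 140.2 to androgen-treated (exact 95% counting interval 38.5 to 1162) and 131 to vehicle-treated cells (35.9 to 1085), which covers counting error only. Per length, PC3 cells held 2.09 to 2.74 times as much GATA2 as GATA3.

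Of the 9 genes, 6 had an upstream sequence in the RefSeq table (GRCh38.p14). Only the first start site listed there for a gene was used, and other start sites were not searched. The last 120 bases before the start site are shown for the GATA genes, which differ between the lines in opposite directions, and for KLF5, which responded to androgen opposite to GATA2. They are written in the direction of the gene, from chr3:128493202-128493321 (GATA2, minus strand), chr10:8045213-8045332 (GATA3, plus strand) and chr13:73054856-73054975 (KLF5, plus strand). Capitals mark the motifs that were searched on both strands and found.
GATA2: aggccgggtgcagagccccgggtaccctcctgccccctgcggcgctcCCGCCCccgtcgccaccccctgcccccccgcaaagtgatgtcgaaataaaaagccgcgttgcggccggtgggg
GATA3: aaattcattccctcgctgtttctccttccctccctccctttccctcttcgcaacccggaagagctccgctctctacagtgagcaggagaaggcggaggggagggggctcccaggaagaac
KLF5: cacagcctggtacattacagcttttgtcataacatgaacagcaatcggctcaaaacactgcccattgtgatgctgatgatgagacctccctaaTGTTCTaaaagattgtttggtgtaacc
The motif in GATA2 is the GC box bound by KLF proteins (GGGCGG, read as CCGCCC), which 42.3% of 27305 promoters and 4 of the 6 members held in the 250 bases upstream. The motif in KLF5 is a steroid receptor core motif (AGAACA, read as TGTTCT) that begins 27 bases upstream of the start. This motif was held by 12.4% of the promoters, and KLF5 was the only one of the 6 members with it. The SOX motif ACAAAG, found in 13.7% of promoters, was read in FOXA1 only. None of the 6 windows held the forkhead motif TGTTTAC, which 2.98% of promoters held, or the GATA-factor core AGATAA, held by 9.37%. The homeobox motif CCAATAA was likewise in none of them and in 2.32% of promoters. The same was true of the grainyhead motif ACCGGT and the cut-homeobox motif ATCGAT, which 1.41% and 0.674% of promoters held. The searched letters did not overlap each other, and a match is a description and not a binding site. The upstream bases of KLF5 were 40.8% G or C, against 72.8% for GATA2, 60.8% for GATA3 and a median of 58% over all promoters.

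Both grainyhead-like genes were lower in PC3 cells. GRHL2 (chromosome 8) measured 3.03, 3.51 and 4.05 CPM in PC3, 169.1, 171 and 182 CPM with androgen and 126, 112 and 115 CPM with vehicle. The PC3 values were close to the filter of 3 CPM and far below every LNCaP value. GRHL2 was 49.6-fold lower in PC3 than in androgen-treated cells (log2 fold change −5.63 ± 0.11, edgeR adjusted p = 1.29e-08) and 33.8-fold lower than in vehicle-treated cells (−5.08 ± 0.11, edgeR adjusted p = 1.88e-08). Among the 8 members with more than 1 count in each LNCaP library, it had the largest fold change against androgen-treated cells. GRHL1 (chr2:9951693-10002277, plus strand) measured 5.46, 5.89 and 6.61 CPM in PC3, 34.4, 32.9 and 34.97 CPM with androgen and 23.5, 21.5 and 22.5 CPM with vehicle. It was lower by 5.73-fold and 3.81-fold in PC3 (log2 fold changes −2.52 ± 0.10 and −1.93 ± 0.11, edgeR adjusted p = 2.31e-07 and 1.07e-06). Per length, the ratio of GRHL2 to GRHL1 was 0.378 to 0.418 in PC3, 3.35 to 3.55 with androgen and 3.48 to 3.65 with vehicle, so the more abundant of the pair differed between the lines. With the length of all merged exons the ratio was 0.729 to 0.805 in PC3, 6.45 to 6.84 with androgen and 6.71 to 7.03 with vehicle. Of the 74-nt stretches of GRHL1, 2.92% also occur in transcripts of other genes, and the other 8 members share none.

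ONECUT2 (chr18:57435374-57491298, plus strand) was the least abundant gene per length in PC3. It measured 6.54, 6.25 and 6.49 CPM in PC3, 17.2, 14.1 and 15.7 CPM with androgen and 12.2, 11.6 and 12.6 CPM with vehicle. PC3 lay below both LNCaP groups. The gene was 2.46-fold lower than in androgen-treated cells (log2 fold change −1.30 ± 0.11, edgeR adjusted p = 1.32e-05). Against vehicle-treated cells it was 1.91-fold lower, under the threshold of 2 (−0.93 ± 0.10, edgeR adjusted p = 4.30e-05).

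SOX9 and KLF5 were the abundant members that were higher in PC3. SOX9 (chr17:72121020-72126416, plus strand) measured 144, 151 and 161 CPM in PC3, 16.3, 19.5 and 16.6 CPM with androgen and 3.72, 4.48 and 4.07 CPM with vehicle. The groups did not overlap. SOX9 was 8.63-fold higher in PC3 than in androgen-treated cells (log2 fold change 3.11 ± 0.09, edgeR adjusted p = 5.38e-08) and 36.6-fold higher than in vehicle-treated cells (5.19 ± 0.10, edgeR adjusted p = 1.20e-08).

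KLF5 (chr13:73054976-73077541, plus strand) showed the same order of groups. It measured 239, 246 and 181 CPM in PC3, 37.6, 29.1 and 31.6 CPM with androgen and 8.27, 5.92 and 6.85 CPM with vehicle. PC3 replicate 3 was the lowest of its group, at 0.747 times the mean of the other two. KLF5 was 6.72-fold higher in PC3 than in androgen-treated cells (log2 fold change 2.75 ± 0.14, edgeR adjusted p = 7.26e-07) and 31.2-fold higher than in vehicle-treated cells (4.96 ± 0.17, edgeR adjusted p = 9.24e-08). In every LNCaP library SOX9 and KLF5 were at 2.45% or more of their PC3 means, above the trace of PC3 transcripts of at most 0.341%. The genes behind this trace were chosen for a low share in LNCaP cells, and its part in the SOX9 and KLF5 counts was not tested. Per length, the ratio of SOX9 to KLF5 was 0.514 to 0.755 in PC3, 0.368 to 0.570 with androgen and 0.383 to 0.645 with vehicle, and these ranges overlapped.

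In androgen-treated against vehicle-treated LNCaP cells, SOX9 and KLF5 rose and GATA2 fell. GATA3 was not tested, and of the other 8 members 3 were called, 2 higher and 1 lower, set against 14.0% of all 11697 genes tested (6.54% higher and 7.49% lower). Over all genes, log2 fold changes had a median of −0.01. SOX9 rose 4.18-fold (log2 fold change 2.06 ± 0.12, edgeR adjusted p = 4.46e-09) and KLF5 4.58-fold (2.19 ± 0.11, edgeR adjusted p = 1.69e-09), and 3.30% and 2.80% of the genes tested had a larger absolute fold change. GATA2 fell 2.32-fold (−1.22 ± 0.04, edgeR adjusted p = 9.28e-12). In libraries of the same number the log2 ratio of androgen to vehicle was 2.13, 2.12 and 2.03 for SOX9, 2.19, 2.30 and 2.21 for KLF5 and −1.20, −1.21 and −1.15 for GATA2. Each gene moved by a like amount at all 3 replicate numbers. Androgen-treated SOX9 and KLF5 levels stayed below those of PC3, and GATA2 stayed above.

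Smaller differences passed the adjusted p alone, which 74.9% of all genes did. GRHL1, GRHL2 and ONECUT2 were 1.48-fold, 1.45-fold and 1.27-fold higher with androgen (log2 fold changes 0.57 ± 0.06, 0.53 ± 0.05 and 0.35 ± 0.09, edgeR adjusted p = 1.74e-06, 4.30e-07 and 0.00308). HOXB13 was 1.29-fold lower with androgen (−0.37 ± 0.04, edgeR adjusted p = 9.51e-07). For each of these 4 genes the libraries of the 2 groups did not overlap, but the share of all genes without overlap was not counted. For FOXA1 the log2 fold change was 0.02 ± 0.05 (edgeR adjusted p = 0.648), and its 95% interval ran from −0.08 to 0.12, inside the fold threshold on both sides. In the fit of all 9 libraries the adjusted p of HOXB13 was 0.0817.

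**Figure D3:**
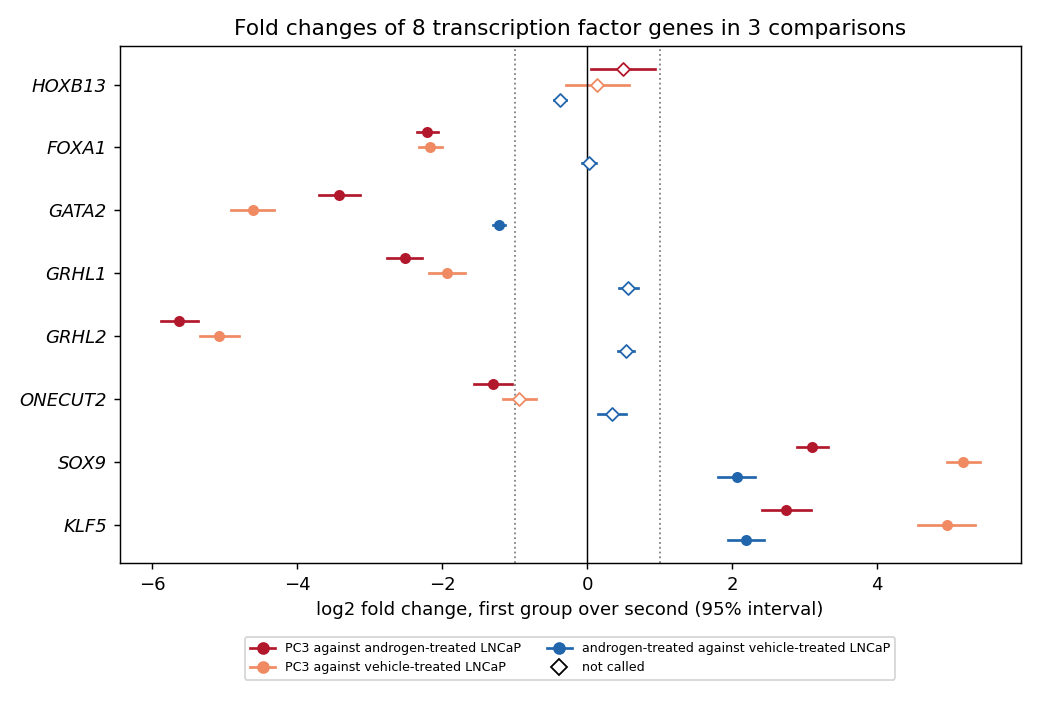
Points show the log2 fold change and bars the 95% interval for 8 genes in the 3 comparisons, with 3 libraries in each group and open diamonds for genes that were not called. GATA3 is left out because LNCaP libraries had at most 1 count. SOX9 and KLF5 are to the right of 1 (dotted line, a fold of 2) in all 3 comparisons, and GATA2 is to the left of −1 in all 3.

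Several relatives from the same families were present in one line and nearly absent from the other. Of 18 relatives in the table, 9 were tested against androgen-treated cells, and 9 against vehicle-treated cells. FOXA2, HOXA13 and ONECUT3 passed the filter through PC3 only and SOX8 through LNCaP cells only, so that these 4 had to differ. Of the other 5, 2 were higher in PC3 and 3 were not called in either comparison, with median log2 fold changes of 0.80 and 0.22, beside 0.04 and 0.03 over all genes. Among all genes tested, 24.0% and 22.2% were called higher. FOXA2, a forkhead relative of FOXA1, had 1665, 1779 and 1804 counts in PC3, 17, 0 and 0 with androgen and 4, 0 and 0 with vehicle. The counts in LNCaP cells were all in the libraries numbered 1, which carried the trace of PC3 transcripts. That trace was measured on genes chosen for a low share, and its part in the FOXA2 counts was not tested. HOXA13, a paralogue of HOXB13, had 1099 to 1217 counts in PC3 and 1 count in each LNCaP library. ONECUT3 had 1852, 1553 and 3236 counts in PC3 and at most 6 in a LNCaP library. SOX8, a relative of SOX9, was lower in PC3, where it had 12 to 17 counts against 91 to 113 with androgen and 180 to 195 with vehicle. GRHL3, the third grainyhead-like gene, had 1 to 7 counts in PC3 and 18 to 50 in LNCaP cells and was not tested.

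With androgen, 6 relatives were tested, of which 2 rose, 2 fell and 2 were not called, with a median of −0.16 beside −0.01 over all genes. Among all genes tested, 6.54% rose and 7.49% fell. KLF4 and KLF6, relatives of KLF5, were the ones that rose (log2 fold changes 2.43 ± 0.17 and 1.93 ± 0.09, edgeR adjusted p = 3.35e-08 and 4.04e-10). Their levels were 32.0 ± 6.63 and 31.5 ± 3.05 CPM with androgen, 5.82 ± 1.48 and 8.07 ± 0.486 with vehicle and 73.2 ± 5.54 and 126 ± 12.8 CPM in PC3 (SD, n = 3), the same order of groups as for KLF5. HOXC13 and SOX8 fell (−1.38 ± 0.10 and −1.004 ± 0.11, edgeR adjusted p = 2.53e-08 and 2.04e-06). SOX9 and SOX8 thus moved in opposite directions with androgen.

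**Figure D4:**
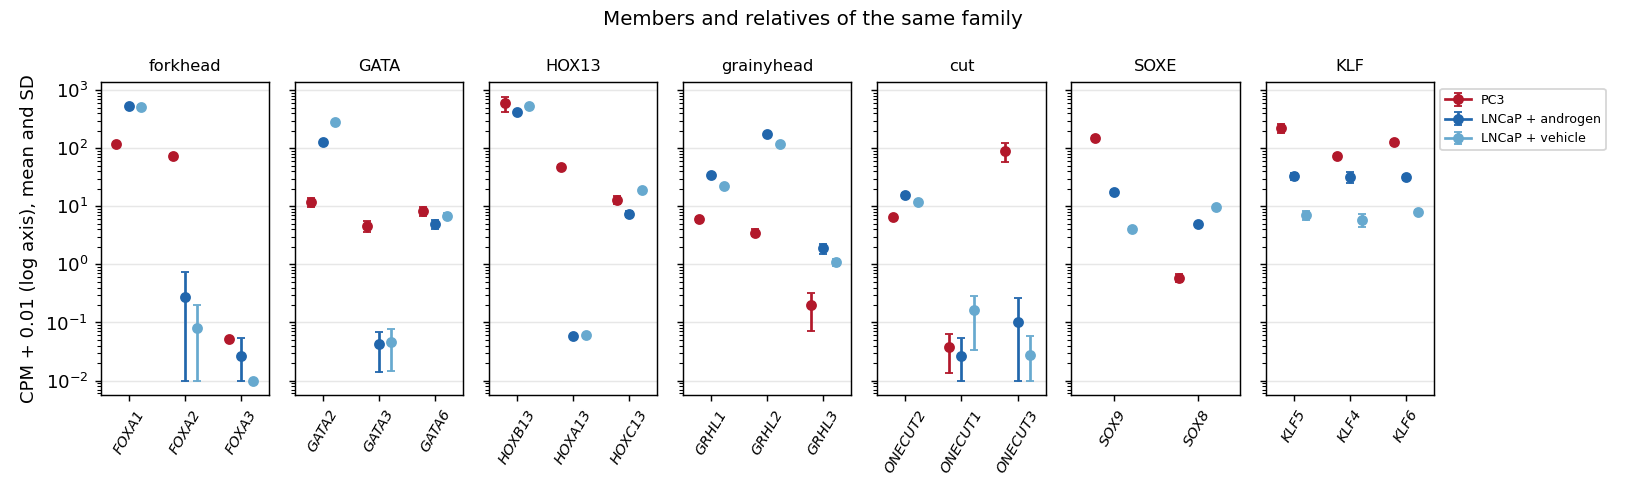
Points show the mean CPM + 0.01 on a log axis and bars the SD (n = 3 libraries) of members and relatives in each group, with 1 panel per family. FOXA2, HOXA13 and ONECUT3 are high in PC3 and near 0 in LNCaP cells, SOX8 runs opposite to SOX9, and KLF4 and KLF6 show the order of groups of KLF5.

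Other regulators of the luminal lineage were mostly lower in PC3. Of 8 such genes 7 were lower and 1 was higher than in androgen-treated cells (median log2 fold change −1.86, beside 0.04 over all genes), and 5 were lower than in vehicle-treated cells, with 3 not called (median −1.27). Of all genes, 22.1% and 21.0% were called lower in these comparisons. EHF, an ETS factor of epithelia, had a log2 fold change of −7.04 ± 0.17 against androgen-treated cells (edgeR adjusted p = 2.60e-08), and CREB3L4, a secretory pathway factor gene, one of −3.75 ± 0.09 (edgeR adjusted p = 2.61e-08). With androgen, 3 of the 8 rose, 1 fell and 4 were not called, with a median of 0.63, where 6.54% of all genes rose and 7.49% fell. SPDEF, an ETS factor, and CREB3L4 rose (2.37 ± 0.05 and 1.35 ± 0.05, edgeR adjusted p = 2.04e-13 and 6.46e-11), and TRPS1, a GATA-type zinc finger gene, fell with GATA2 (−2.30 ± 0.09, edgeR adjusted p = 1.45e-10).

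Of 13 partner factors linked to these proteins, MEIS2, a homeobox partner of HOX proteins, passed the filter through PC3 only, with 390 to 402 counts there and at most 3 in a LNCaP library. Of the other 12, 1 was higher, 4 were lower and 7 were not called in PC3 against androgen-treated cells, and 1, 6 and 5 against vehicle-treated cells (medians −0.50 and −0.95), where 46.0% and 43.2% of all genes were called. NFIA, a nuclear factor I gene, was lower in PC3 (log2 fold changes −3.44 ± 0.13 and −4.06 ± 0.13, edgeR adjusted p = 1.78e-07 and 7.91e-08). With androgen 1 of 12 tested partners rose, 2 fell and 9 were not called, with a median of −0.18, where 14.0% of all genes were called. MEIS1 rose (1.31 ± 0.12, edgeR adjusted p = 3.24e-07), while TLE3, a corepressor gene, fell (−1.29 ± 0.06, edgeR adjusted p = 3.53e-10).

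Most epithelial genes linked to grainyhead-like factors were lower in PC3. Of 7 genes, RAB25 and OVOL2 passed the filter through LNCaP cells only and so had to differ. Of the other 5, 4 were lower and 1 was not called in either comparison with LNCaP cells, with medians of −2.62 and −2.84. Of all genes, 22.1% and 21.0% were called lower. The gene not called was CLDN4, a tight junction gene (log2 fold changes −0.13 ± 0.18 and 0.59 ± 0.16, edgeR adjusted p = 0.514 and 0.00818). CDH1, which encodes E-cadherin, had 229 to 346 counts in PC3 and 9891 to 15028 in LNCaP cells (log2 fold changes −5.86 ± 0.14 and −5.58 ± 0.13, edgeR adjusted p = 2.42e-08 and 2.19e-08). RAB25, an epithelial trafficking gene, had 6 to 9 counts in PC3 and 1292 to 1468 in LNCaP cells. With androgen none of the 7 was called, where 14.0% of all genes were, and the median was 0.10. By the adjusted p alone, CLDN4 was higher with androgen (0.70 ± 0.07, edgeR adjusted p = 1.40e-06) and ESRP1, an epithelial splicing factor gene, lower (−0.24 ± 0.04, edgeR adjusted p = 0.000344). Among the mesenchymal markers, VIM and ZEB1 had 26319 to 32841 and 1462 to 1725 counts in PC3, against 23 to 272 and 1 to 7 in LNCaP cells. ZEB1 and CDH2 passed the filter through PC3 only, as did SNAI2 against vehicle-treated cells. Against androgen-treated cells, 2 of the other 4 tested were higher in PC3. SNAI2 and TWIST1 were not called there (0.30 ± 0.17 and −0.56 ± 0.21, edgeR adjusted p = 0.139 and 0.0388). Against vehicle-treated cells the other 3 were higher, but VIM, at a mean of 2.25 CPM with vehicle, also passed the filter through PC3. Of all genes, 24.0% and 22.2% were called higher.

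Genes that start within 100 kb of a member showed both shared and separate changes. PRAC1 and PRAC2, prostate and colon genes whose starts lie 6.23 kb and 5.57 kb from that of HOXB13, fell with androgen (log2 fold changes −1.35 ± 0.05 and −1.57 ± 0.08, edgeR adjusted p = 6.25e-11 and 1.25e-09), where HOXB13 was lower by 0.37 on that scale. PRAC1 and PRAC2 were also lower in PC3 than in vehicle-treated cells (−1.58 ± 0.12 and −1.12 ± 0.12, edgeR adjusted p = 5.46e-06 and 4.67e-05), where HOXB13 was not called. Against androgen-treated cells neither was called (−0.25 ± 0.12 and 0.43 ± 0.15, edgeR adjusted p = 0.0804 and 0.0247). GATA2-AS1, an antisense gene that overlaps GATA2, was lower in PC3 (−3.35 ± 0.14 and −3.28 ± 0.14, edgeR adjusted p = 2.33e-07 and 2.62e-07), as GATA2 was. With androgen GATA2-AS1 had a log2 fold change of 0.05 ± 0.07 (edgeR adjusted p = 0.509), while GATA2 fell by 1.22 on that scale. The counts were strand-specific, so reads from the 2 strands were kept apart. TTC6, which overlaps FOXA1 on the other strand, was lower in PC3 (−3.34 ± 0.19 and −3.10 ± 0.13, edgeR adjusted p = 1.13e-06 and 2.94e-07). GATA3-AS1 had 12, 17 and 16 counts in PC3 and none in LNCaP cells. LINC01152, upstream of SOX9, had 34 to 48 counts in PC3 and at most 1 in a LNCaP library.

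**Figure D5:**
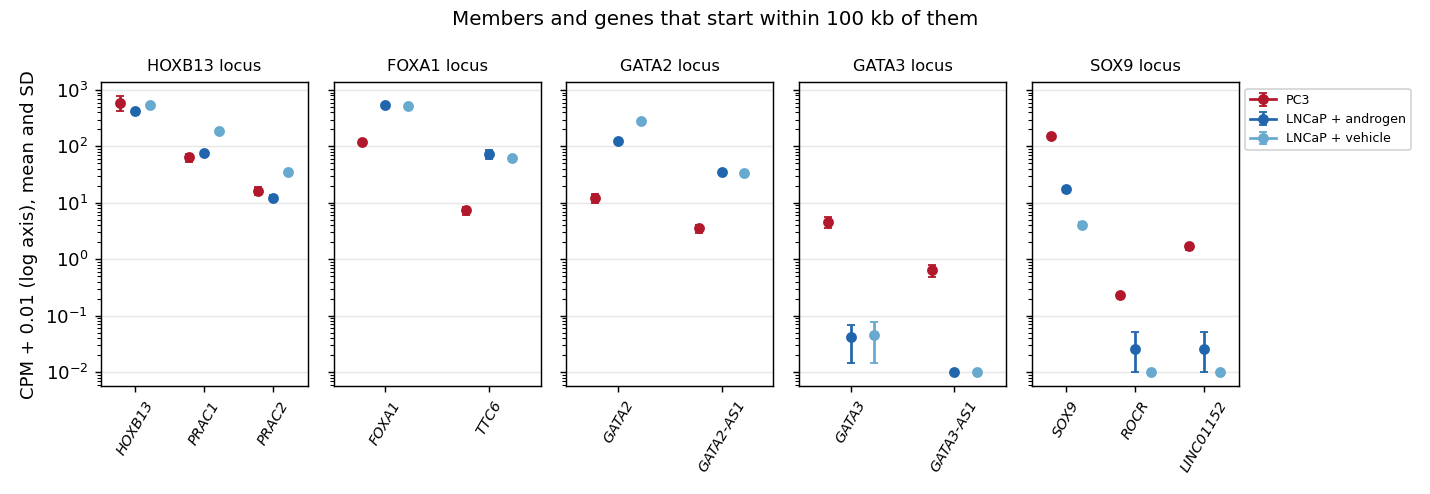
Points show the mean CPM + 0.01 on a log axis and bars the SD (n = 3 libraries) of members and of genes that start within 100 kb, with 1 panel per locus. PRAC1 and PRAC2 are highest with vehicle, and GATA2-AS1 is level between the LNCaP groups where GATA2 differs.

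Among 12843 genes, the pattern over the 9 libraries was compared with that of each member by the root mean square difference of centred log2 levels (CPM + 0.5). The nearest gene was RIMKLA for HOXB13 (difference 0.102), NUDT19 for FOXA1 (0.0618), LMX1B for GATA2 (0.153), PRELID2 for GATA3 (0.0727), SLC39A6 for GRHL1 (0.0620), FAM155B for GRHL2 (0.154), MRPL40 for ONECUT2 (0.0548), CAPN2 for SOX9 (0.165) and MYL9 for KLF5 (0.236). The second nearest were RESF1, EPB41L4B, SORBS2, KDR, HS6ST1, CSAG3, AAGAB, SLC16A3 and MAFF, in the same order of members. SLC39A6, a zinc transporter gene, averaged 87.4 CPM in PC3, 429 with androgen and 295 with vehicle, the order of groups of GRHL1. CAPN2, a calpain gene, averaged 1742, 188 and 47.3 CPM, the order of SOX9. KLF5 and SOX9 had the most distant nearest genes, and with 3 groups a small difference mostly reflects like group means.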

How the data were processed

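Poly(A) RNA of 9 libraries was read as single 74-nt ends. Per the labels and the supplementary methods, the authors trimmed adapters (cutadapt), aligned reads with STAR to GRCh38 (hg38), collapsed PCR duplicates by UMI-tools and mapped what was left once more. The submitters' processing notes give cutadapt 4.1, STAR 2.7.7a and UMI-tools 1.1.2, the supplementary methods other versions of cutadapt and STAR, and the gene annotation is not given in the sources used here. The authors deposited counts, whole reads per gene and library without normalization, and all 253944 values of the table equalled the forward-strand column of each library's STAR output. Between 20.3% and 25.4% of reads lay on no gene, and 2.33% to 3.06% of gene reads were antisense.

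Genes with more than 3 CPM in at least 3 of a comparison's 6 libraries were tested with edgeR 4.0.16 (R 4.3.3), with TMM factors and the quasi-likelihood F test, without a batch term because the batches of the study's own test are not named. Benjamini-Hochberg adjustment ran over all genes tested. Levels use TMM factors over all 9 libraries, and GENCODE 44 gave lengths and positions. On simulated counts with 200 genes changed by log2 values of 1.5 or 2, the test called 189 of them (PC3 against androgen-treated cells, 12138 genes, 1 false call), 192 (PC3 against vehicle-treated cells, 12279 genes, 4 false calls) and 197 (androgen-treated against vehicle-treated cells, 11535 genes, 0 false calls). The simulated share of changed genes was far smaller than the 46.0%, 43.2% and 14.0% called in the data, so these rates need not hold there. Counting intervals and the floor of 3 counts cover counting error only.

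The 9 genes and the lists were chosen with earlier results of these data known. Named genes are the members, up to 4 tested genes per list and comparison with the largest absolute fold change, genes that start within 100 kb of a member, and the 2 genes nearest to each member in pattern. Genes named beyond that rule (GRHL3 and the marker genes at or near 0) were chosen after their values were seen. ACP3 was not analysed here. Some genes that the rule covers are not reported here, while counts, medians and sums over the lists include them.

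Replicate numbers are shared by all groups. Deviations from group means over 10910 genes correlated with 0.16, 0.23 and 0.20 where an androgen-treated and a vehicle-treated library had the same number, and with −0.25 to 0.09 otherwise. PC3 and androgen-treated LNCaP libraries of different numbers correlated with −0.23 to 0.22. Values of this size therefore do not settle whether the numbers pair LNCaP libraries. Alternatives were DESeq2 1.42.0 and its size factors, the likelihood ratio test, the replicate block, 2 other filters, unstranded counts, 1 fit of all libraries, the adjusted p alone, merged exon lengths and leaving out each library.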

Additional observations from a re-analysis of the deposited data

Results flagged for a closer look

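Reads on the strand opposite to a member were outside the comparisons and were compared with the vehicle-treated libraries. On GRHL2 they reached a median of 6.47 CPM in androgen-treated cells, with 140, 94 and 150 reads or 2.63% to 3.94% of all reads on the gene, compared with 50, 38 and 44 reads or 1.77% to 2.03% with vehicle. On SOX9 they reached a median of 1.02 CPM in PC3, with 22, 23 and 26 reads or 0.604% to 0.682% of reads on the gene, and 0 reads with vehicle. On KLF5 they reached a median of 0.315 CPM in PC3, with 20, 6 and 8 reads or 0.109% to 0.332%, and 0, 0 and 1 reads with vehicle. With vehicle SOX9 had only 71 to 84 and KLF5 111 to 158 counts on its own strand. These are too few to tell a share like that in PC3 from none. Over all genes, the antisense share per library was 2.33% to 3.06%, and of the shares given above, that of GRHL2 with androgen reached past this range.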

How the results depend on the processing

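Of 414 fold changes of members under alternatives, 405 kept their direction and their side of the threshold, 6 passed when the fold minimum was dropped and 3 reversed. HOXB13 in PC3 against vehicle-treated cells ran from −0.16 (without PC3 replicate 3) to 0.28 (without PC3 replicate 1) with 1 library left out. FOXA1 with androgen ran from −0.0173 (without vehicle-treated replicate 3) to 0.0697, and was −0.0032 without androgen-treated replicate 2. With no filter on low counts 9147, 8713 and 2941 genes were called in PC3 against androgen-treated, PC3 against vehicle-treated and androgen-treated against vehicle-treated cells. With the adjusted p alone the numbers were 10530, 10577 and 8763, and with androgen 5 members were then higher and 2 lower. The summed level per length was 335 CPM per kb with androgen and 379 with vehicle when merged exon lengths, which are longer, were used. GATA3 could not be fitted with at least 10 counts in every library.

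For PC3 and LNCaP libraries, deviations of the same number correlated with −0.06, 0.05 and −0.19 (androgen) and 0.07, −0.19 and −0.02 (vehicle), which shows no pairing of these libraries. With the replicate block, 5756, 5495 and 1638 genes were called in the 3 comparisons, and 0 of 52 block fits of a member changed a call.

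Depth limits GATA3 in LNCaP cells, where the floor of 3 counts is 0.139 to 0.160 CPM.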
